A study of Mus musculus with 6 samples.

Results

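The 9 genes described here make, carry, bind, clear or sense retinoic acid: the carrier *Rbp4* and its receptor *Stra6*, the retinaldehyde dehydrogenases *Aldh1a1*, *Aldh1a2* and *Aldh1a3*, the binding proteins *Crabp1* and *Crabp2*, the degrading enzyme *Cyp26a1* and the nuclear receptor *Rarb*. They are 9 of 18194 genes that had a probe set naming them alone, and they were read from 11 of 34958 such probe sets. They were chosen by name as a pathway, with the differences between the groups on these same arrays already known. Their differences are therefore given as a description with no test.

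RNA of whole pancreases at embryonic day 15.5 was hybridized to Affymetrix Mouse Genome arrays, starting from 50 ng per sample and 2 rounds of cDNA amplification. The 3 knockout samples are *Jarid2* Δpanc embryos (Pdx1-Cre;Jarid2 flox/flox), in which a Cre under the *Pdx1* promoter deletes *Jarid2*, a partner of Polycomb repressive complex PRC2, in pancreatic progenitors. The 3 control samples are wild-type embryos (*Jarid2* WT); whether they carried the Cre or a floxed allele is not given in the sources used here. All 6 are labelled C57BL/6, and each label names 1 embryo. The deletion is epithelial and mosaic, so that mesenchyme and some epithelial cells keep *Jarid2* in the knockout samples. The signal is a scaled intensity in MAS5 units, values under 16 were set to this floor before log2 was taken, and levels of different probe sets cannot be set against each other.

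Retinol circulates bound to the product of *Rbp4* and enters some cells through Stra6. It is oxidized to retinaldehyde and then, by the Aldh1a enzymes, to retinoic acid, which binds nuclear receptors that sit on DNA with Rxr partners. Crabp proteins hold retinoic acid in the cytoplasm, and Cyp26 enzymes remove it. In the early embryo *Aldh1a2* of the mesoderm supplies the retinoic acid that the dorsal pancreatic bud needs. The genes *Rarb* and *Cyp26a1* are classical direct targets, so that their transcripts are used as readouts of retinoic acid.

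Receptor dimers bind direct repeats of a 6-base half-site. The promoter windows of RefSeq (GRCm38.p6, 250 bases before to 50 after each start) were searched on both strands for the half-site AGGTCA, with G also allowed at position 1 and T also allowed at position 3, repeated with 5 bases between the copies, the spacing known from *Rarb*. Of 32851 windows, 32 (0.0974%) held such a repeat, and 2 of the 12 windows of 7 members did. The spacing searched was taken from *Rarb*, itself a member and a known target, so nothing is read from this count. These are shown because they are the only member windows with the repeat, at the start sites of the target genes just named. The repeat is in capitals, and both are written 5′ to 3′ on the minus strand.
Rarb, chr14:16575506-16575535: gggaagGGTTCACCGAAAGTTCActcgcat
Cyp26a1, chr19:37697770-37697799: acaaattAGTTCACCCAAAGTTCAtcttta
With positions counted from the 5′ end of the repeat, the *Rarb* repeat became that of *Cyp26a1* by G1A and G9C. The repeat lay 53 to 37 bases before a start of *Rarb* and 32 to 16 bases before a start of *Cyp26a1*, on the strand opposite to that gene. Both repeats lie inside the RefSeq extent of their gene, and exons were not annotated in the table used here. Repeats with 1 or 2 bases between the half-sites were in 0.222% and 0.268% of all windows and in 0 of the 12 member windows. A match is a description of the letters and does not show binding.

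Before the genes, the samples themselves differ in ways the genotype labels do not name. The brightest probe set of *Xist*, which silences an X chromosome, had signals of 4662, 4905 and 4197 in *Jarid2* Δpanc samples 1, 2 and 3. In *Jarid2* WT samples 1, 2 and 3 it had 24, 12 and 4390. The other *Xist* probe sets had 297 and 1873 in *Jarid2* WT sample 3, against 926 to 1085 and 667 to 1350 in *Jarid2* Δpanc. The Y-linked *Eif2s3y* was high where *Xist* was low. Sex transcripts therefore cannot be told apart from genotype except through *Jarid2* WT sample 3. The 10 skeletal muscle markers summed to 353 to 450 in *Jarid2* Δpanc, against 331, 360 and 13275 in *Jarid2* WT, the last being sample 3. The nuclear RNA *Malat1* was higher in every *Jarid2* Δpanc sample, with 2756, 2801 and 3486 in *Jarid2* Δpanc, against 1503, 1221 and 1146 in *Jarid2* WT for its brightest probe set, and log2 differences of -0.06 to 1.56 over its 7 probe sets. Its part in the values below was not tested. The probe sets of *Jarid2* itself gave log2 differences of 0.01 to 0.13, and a probe outside the deleted part of the gene checks nothing about the deletion. Over all 34958 probe sets, limma with Benjamini-Hochberg adjustment called 0 lower (0%) and 1 higher (0.00286%) in *Jarid2* Δpanc. The 1 called is a dim probe set of *Cp*, ceruloplasmin, with 23 in each *Jarid2* Δpanc sample, against 7, 13 and 16 in *Jarid2* WT (adjusted p = 0.00461). After flooring, both groups had no spread in this probe set, so that its small p follows from the floor.

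Among the 9 genes, *Aldh1a1* was the one whose *Jarid2* Δpanc samples all lay below the controls, and *Aldh1a2* was the one whose *Jarid2* Δpanc samples all lay above. Over all genes 5.64% lay entirely below and 5.71% entirely above, and since the genes were chosen with this contrast known nothing is read from the count. *Rbp4* and *Crabp1* had log2 differences of -0.05 and -0.02 with overlapping groups. *Rarb* was near 0.25 with overlapping groups. The signals of *Aldh1a3*, *Crabp2*, *Cyp26a1* and *Stra6* were under the floor of 16 on 1 or more arrays. The 5 others were over the floor on all 6 arrays, and the median log2 difference (*Jarid2* Δpanc minus *Jarid2* WT) was 0.24 over all 9 and -0.02 over those 5, beside 0.00 over all genes.

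**Figure D1:**
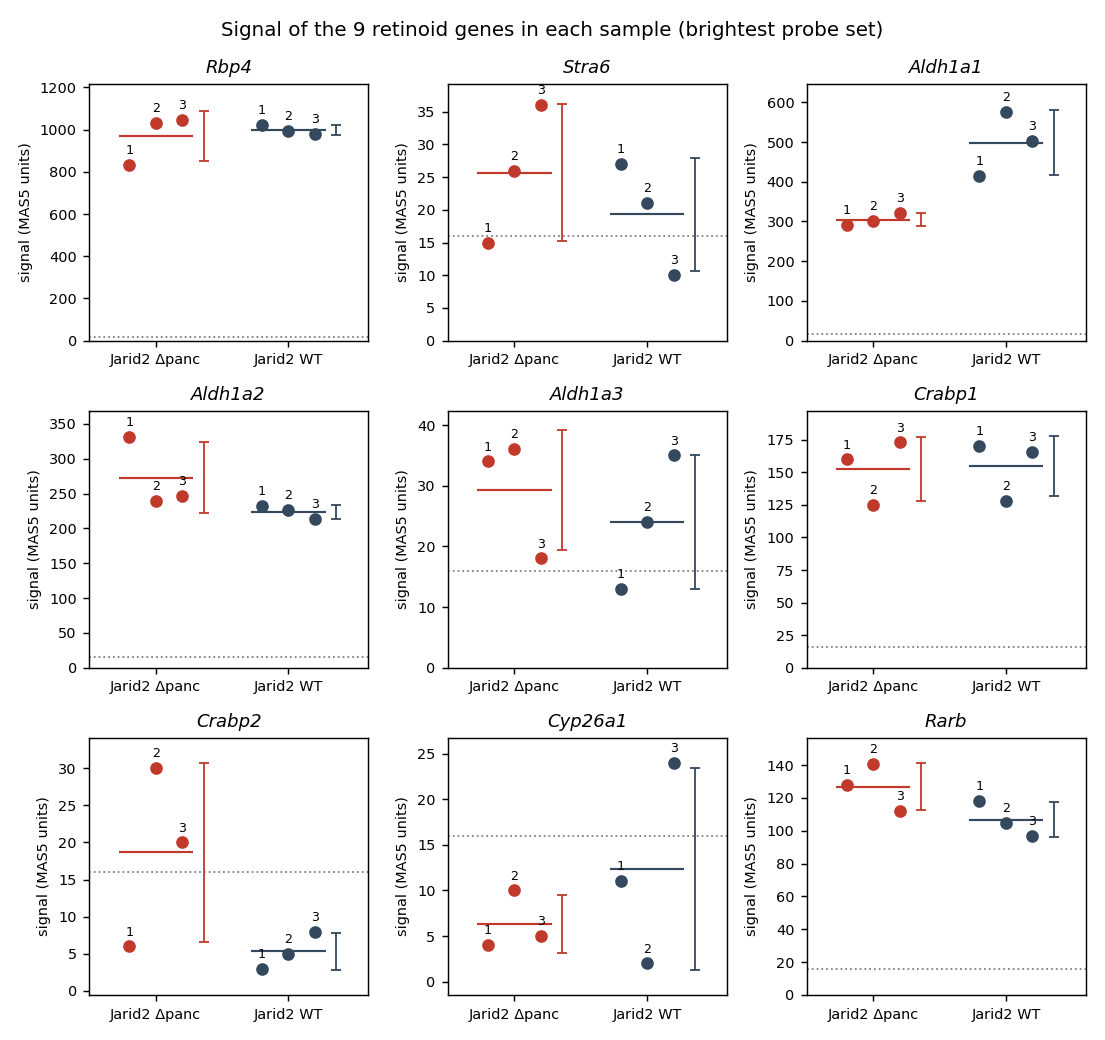
Signal in MAS5 units (linear axis) of the brightest probe set of each gene, with numbered points for the samples, a line at the mean, a bar of ± 1 SD (n = 3 each) beside it and a dotted line at the floor of 16. *Aldh1a1* sits at 291 to 322 in *Jarid2* Δpanc and 415 to 577 in *Jarid2* WT, and *Aldh1a2* is highest in *Jarid2* Δpanc sample 1.

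*Aldh1a1* oxidizes retinaldehyde to retinoic acid and lies on chromosome 19 (20492583 to 20643463, GRCm38.p6). Its signals were 291, 302 and 322 in *Jarid2* Δpanc samples 1, 2 and 3, against 415, 577 and 504 in *Jarid2* WT samples 1, 2 and 3. No *Jarid2* Δpanc sample reached the lowest control, and the 3 *Jarid2* Δpanc values lay closer together than the controls. The means were 305 ± 15.7 in *Jarid2* Δpanc and 499 ± 81.1 in *Jarid2* WT (SD, n = 3 each), a ratio of geometric means of 0.617 and a log2 difference of -0.70 (SE 0.14). Single pairs of a *Jarid2* Δpanc and a *Jarid2* WT sample gave ratios of 0.504 to 0.776. Against *Jarid2* WT sample 3 alone, the control with high *Xist*, the log2 difference was -0.73. That value rests on 1 control, which also had the high skeletal muscle sum.

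The lower *Aldh1a1* signal ran beside lower signals of acinar and endocrine markers, and in whole tissue fewer cells of a type and less RNA per cell cannot be told apart. All 11 measured acinar markers were lower on average in *Jarid2* Δpanc (median log2 difference -0.42, 6 entirely below the controls), as were 12 of 13 endocrine markers (median -0.37, 7 entirely below). Over all genes 5.64% lay entirely below. The acinar signals summed to 55868 to 67470 in *Jarid2* Δpanc and 71015 to 81703 in *Jarid2* WT. The endocrine signals summed to 12547 to 14682 in *Jarid2* Δpanc and 20766 to 23988 in *Jarid2* WT. No marker of either list was under the floor on any array. Measured from the mean of the acinar list in the same sample, *Aldh1a1* differed by 0.04 on the log2 scale, with overlapping groups. The acinar markers themselves ranged from -2.12 for *Cela2a* to -0.07 for *Ctrb1*, so that this value depends on which markers are listed. Measured from the mean of the endocrine list *Aldh1a1* differed by -0.24, also with overlapping groups. Measured from that of the 8 duct and trunk markers it differed by -0.67, with every *Jarid2* Δpanc sample below the controls. The highest *Aldh1a1* value of each group, 322 in *Jarid2* Δpanc sample 3 and 577 in *Jarid2* WT sample 2, was in the sample with the high liver marker sum (2965 and 3082). In the other samples liver markers summed to 727 to 1038. There *Aldh1a1* had 291 and 302 in *Jarid2* Δpanc, against 415 and 504 in *Jarid2* WT. The part of these cells and of liver RNA in the *Aldh1a1* values was not tested.

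The genes whose log2 profile over the 6 samples was most like that of *Aldh1a1*, among 9874 genes with a mean log2 value above 6, were *Nucb2*, *Slc35c2* and *Mthfd2*. Their root mean square distances from the centred profile were 0.0876, 0.0954 and 0.0958. *Nucb2*, which encodes a calcium-binding protein, had 324, 353 and 314 in *Jarid2* Δpanc, against 460, 609 and 512 in *Jarid2* WT, with sample 2 highest in both groups. *Mthfd2*, an enzyme of mitochondrial folate metabolism, had 170, 170 and 198 in *Jarid2* Δpanc, against 233, 298 and 256 in *Jarid2* WT.

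*Aldh1a2*, the embryonic enzyme for retinoic acid that the mesoderm uses, lies on chromosome 9 (71215789 to 71296243). Its signals were 331, 239 and 247 in *Jarid2* Δpanc samples, against 232, 226 and 213 in *Jarid2* WT samples. All *Jarid2* Δpanc values lay above all controls, but samples 2 and 3 by little and sample 1 by far more. The signal averaged 272 ± 51.0 in *Jarid2* Δpanc and 224 ± 9.71 in *Jarid2* WT (SD, n = 3 each), a log2 difference of 0.27 (SE 0.14). Without *Jarid2* Δpanc sample 1 the log2 difference was 0.12.

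In *Jarid2* Δpanc sample 1 some genes of the tissue around the epithelium were also high, while the mesenchymal list as a whole was not highest there. The brightest probe set of the mesenchymal factor *Tcf21* had 550, 297 and 269 in *Jarid2* Δpanc, against 191, 258 and 207 in *Jarid2* WT. The log2 difference was 0.70 for this probe set and -0.12 for the other probe set of *Tcf21*. The mesothelial factor *Wt1* had 199, 112 and 88 in *Jarid2* Δpanc, against 106, 110 and 98 in *Jarid2* WT. *Tlx1*, a factor of the spleen primordium, had 151, 44 and 34 in *Jarid2* Δpanc, against 45, 42 and 55 in *Jarid2* WT. Sample 1 was the highest of the 6 in each of the 3 genes. These genes, taken from the marker lists, were picked after their values were seen. Of the 3 measured spleen markers sample 1 was the highest of the 6 samples in 2, *Tlx1* and *Nkx2-5*. It was not the highest in *Nkx3-2*, with 25, 5 and 27 in *Jarid2* Δpanc, against 18, 34 and 25 in *Jarid2* WT. Of the 14 mesenchymal markers sample 1 was the highest of the 6 samples in 3 but the lowest of the *Jarid2* Δpanc samples in 8, collagens among them. The mesenchymal signals summed to 29679, 34783 and 30982 in *Jarid2* Δpanc, against 26290, 28351 and 33933 in *Jarid2* WT. On the log2 scale 12 of the 14 were higher on average in *Jarid2* Δpanc (median 0.11, 1 entirely above the controls, beside 5.71% of all genes). The sum of the 9 mesothelial markers was carried by the keratins *Krt8* and *Krt18*, which other epithelia also express. The 7 others summed to 1145, 1025 and 785 in *Jarid2* Δpanc, against 820, 849 and 759 in *Jarid2* WT, with sample 1 highest. Of these 7, 6 were higher on average and 2 lay entirely above the controls, beside 5.71% of all genes. Measured from the mean log2 signal of the mesenchymal list, *Aldh1a2* differed by 0.14 on the log2 scale, with overlapping groups. Measured from that of the mesothelial list it differed by 0.12, also with overlapping groups, and by 0.05 without the keratins, a choice made after seeing the data. The part of adjoining tissue in the *Aldh1a2* values was not tested.

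**Figure D2:**
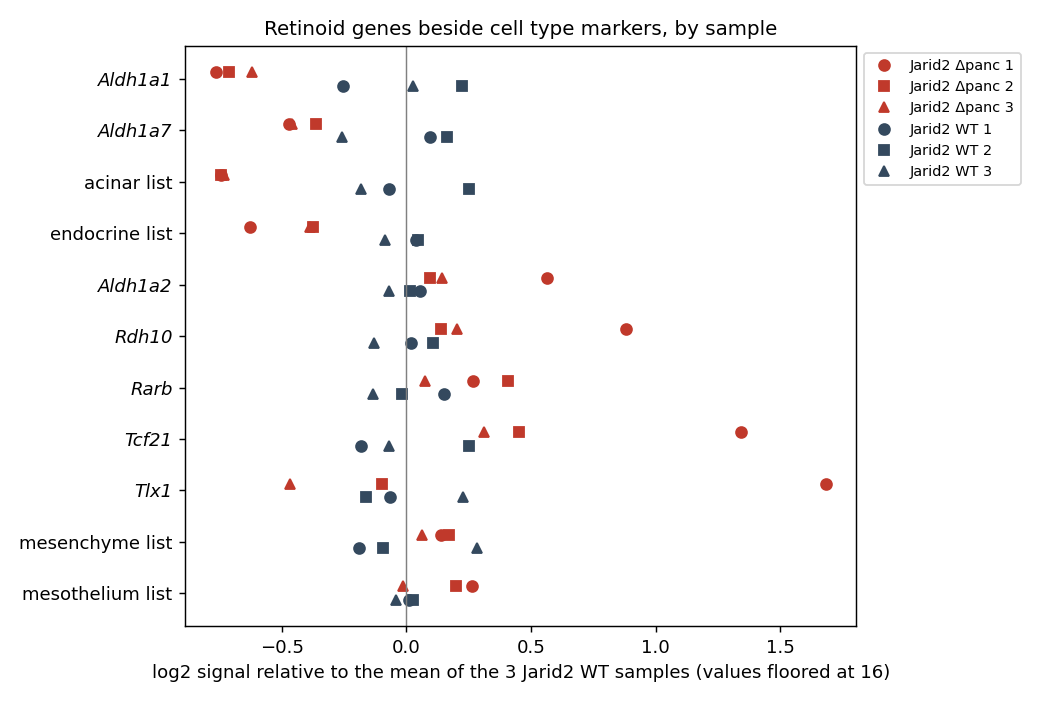
Log2 signal minus the average control value over 3 *Jarid2* WT samples (x axis, values floored at 16) for single genes in italics and for the means of marker lists, with red symbols for *Jarid2* Δpanc above dark symbols for *Jarid2* WT. *Aldh1a1* and *Aldh1a7* sit left of the controls together with the acinar and endocrine lists, while *Jarid2* Δpanc sample 1 (circle) is farthest right for *Aldh1a2*, *Rdh10*, *Tcf21* and *Tlx1*.

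*Aldh1a3*, the third enzyme of this kind, on chromosome 7 (66390892 to 66427477), was near the floor on the array. Its brightest of 3 probe sets had 34, 36 and 18 in *Jarid2* Δpanc samples, against 13, 24 and 35 in *Jarid2* WT samples, a log2 difference of 0.24 (SE 0.43) with overlapping groups. A second probe set had 2, 2 and 24 in *Jarid2* Δpanc, against 3, 15 and 5 in *Jarid2* WT. The remaining one had 6 to 8 in every sample and was under the floor on all 6 arrays. These values do not give *Aldh1a3* a direction.

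Among the carriers, *Rbp4* on chromosome 19 (38116620 to 38125321) had 831, 1030 and 1047 in *Jarid2* Δpanc samples, against 1023, 993 and 979 in *Jarid2* WT samples. The *Jarid2* Δpanc values spread to both sides of the controls, with sample 1 lowest. The log2 difference was -0.05 (SE 0.10), and 0.06 without *Jarid2* Δpanc sample 1. *Rbp4* is also made by liver, whose 9 markers summed to 1038, 727 and 2965 in *Jarid2* Δpanc, against 833, 3082 and 768 in *Jarid2* WT. *Jarid2* Δpanc sample 3 and *Jarid2* WT sample 2 had the high liver sums, with *Rbp4* signals of 1047 in that *Jarid2* Δpanc sample and 993 in that *Jarid2* WT sample. The part of liver RNA in the *Rbp4* values was not tested. The profiles most like that of *Rbp4* were those of *Spc25*, *Nek2* and *Pias1* (root mean square distances 0.0186, 0.0244 and 0.0264), and *Spc25*, a kinetochore subunit, had 662, 801 and 813 in *Jarid2* Δpanc, against 804, 763 and 778 in *Jarid2* WT. *Stra6*, on chromosome 9 (58063793 to 58154004), had 15, 26 and 36 in *Jarid2* Δpanc, against 27, 21 and 10 in *Jarid2* WT. It was over the floor on 4 arrays, with a log2 difference of 0.24 (SE 0.38).

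The binding protein genes *Crabp1* and *Crabp2* gave an even and a near-floor signal. *Crabp1*, on chromosome 9 (54764748 to 54773110), had 160, 125 and 173 in *Jarid2* Δpanc samples, against 170, 128 and 166 in *Jarid2* WT samples. The groups covered nearly the same range, with a log2 difference of -0.02 (SE 0.18). *Crabp2*, on chromosome 3 (87948693 to 87953372), had 6, 30 and 20 in *Jarid2* Δpanc, against 3, 5 and 8 in *Jarid2* WT. Only *Jarid2* Δpanc samples 2 and 3 were over the floor, and the log2 difference of 0.41 (SE 0.25) became 1.64 with a floor of 1 and 0.00 with a floor of 64, so that its size is set by the floor.

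Of the readouts of retinoic acid, which carry the repeats printed above, *Rarb* was over the floor on all arrays and *Cyp26a1* was not. *Rarb*, on chromosome 14 (16430839 to 17082331), had 128, 141 and 112 in *Jarid2* Δpanc samples, against 118, 105 and 97 in *Jarid2* WT samples. *Jarid2* Δpanc sample 3 lay below *Jarid2* WT sample 1, so the groups overlapped. Mean signals were 127 ± 14.5 in *Jarid2* Δpanc and 107 ± 10.6 in *Jarid2* WT (SD, n = 3 each), a log2 difference of 0.25 (SE 0.12). *Cyp26a1*, on chromosome 19 (37697738 to 37701536), had 4, 10 and 5 in *Jarid2* Δpanc, against 11, 2 and 24 in *Jarid2* WT. It was over the floor in *Jarid2* WT sample 3 only, and gives no direction. Relative to the mesenchymal list *Rarb* differed by 0.13 on the log2 scale, with overlapping groups and *Jarid2* WT sample 1 the highest of the 6.

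**Figure D3:**
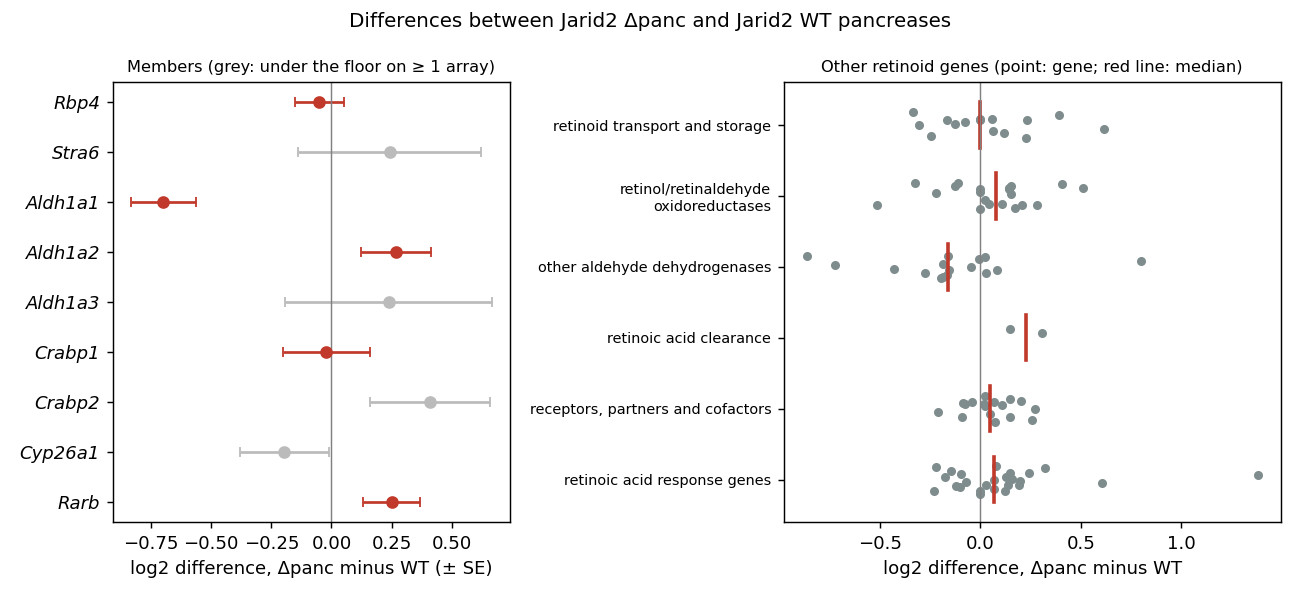
Log2 difference, *Jarid2* Δpanc minus *Jarid2* WT, of the brightest probe set of each of the 9 genes with its standard error (left, grey where a sample was under the floor) and of the other retinoid genes by list with the list median as a red line (right). *Aldh1a1* at -0.70 is the lowest of the 9, and the list of other aldehyde dehydrogenases is the one with a median below zero, at -0.16.

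The wider pathway was followed in 6 lists of 107 genes, of which 94 were measured by a probe set of their own. With limma and Benjamini-Hochberg adjustment over all probe sets, 0 of the 94 passed in either direction. At an unadjusted p under 0.05, 7 were lower and 2 higher, beside 4.38% lower and 4.28% higher over all genes. Of the 94, 8 lay entirely below and 5 entirely above the controls, beside 5.64% and 5.71% of all genes. The log2 difference was below zero in 35 and above zero in 52, with a median of 0.03, and 7 were under the floor on all arrays.

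Of 15 genes of retinoid transport and storage the median was 0.00. The brightest were *Ttr*, the plasma partner of Rbp4, *Scarb1*, a lipoprotein receptor, and *Lpl*, lipoprotein lipase. *Ttr* had 7972, 9381 and 8816 in *Jarid2* Δpanc, against 10664, 11792 and 10582 in *Jarid2* WT, entirely below the controls (log2 difference -0.34, SE 0.08, adjusted p = 0.392 from limma). *Scarb1* and *Lpl* had -0.08 and -0.16 with overlapping groups.

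Of 20 retinol and retinaldehyde oxidoreductases the median was 0.08. Among them 2 lay entirely below and 1 entirely above the controls, beside 5.64% and 5.71% of all genes. The brightest, *Adh5*, *Dhrs4* and *Dhrs7*, had 0.03, -0.33 and 0.14. The 3 that did not overlap were *Rdh10*, which makes retinaldehyde for *Aldh1a2* in the embryo, *Dhrs3*, which turns retinaldehyde back to retinol, and the retinol saturase *Retsat*, named after their values were seen. *Rdh10* had 407, 243 and 254 in *Jarid2* Δpanc samples, against 224, 238 and 202 in *Jarid2* WT samples (0.41, SE 0.23, adjusted p = 0.775 from limma), with sample 1 high as for *Aldh1a2*. *Dhrs3* had 136, 143 and 123 in *Jarid2* Δpanc, against 145, 159 and 164 in *Jarid2* WT (-0.22, SE 0.08, adjusted p = 0.573 from limma). *Dhrs3* also counts among the response genes, since retinoic acid induces it. *Retsat* had 84, 60 and 63 in *Jarid2* Δpanc, against 109, 99 and 86 in *Jarid2* WT (-0.52, SE 0.17, adjusted p = 0.536 from limma), while its other probe set had a log2 difference of 0.08.

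Of 16 other aldehyde dehydrogenases 12 were lower on average in *Jarid2* Δpanc and 4 higher, with a median of -0.16, and 4 lay entirely below the controls. Over all genes 7896 of 18194 were lower on average, 8670 were higher and 5.64% lay entirely below. The list was chosen with this contrast known, so nothing is read from its counts. The brightest were *Aldh1b1*, *Aldh9a1* and *Aldh18a1*, at -0.01, -0.16 and -0.17. *Aldh18a1*, an enzyme of proline synthesis, had 1531, 1559 and 1563 in *Jarid2* Δpanc, against 1803, 1738 and 1682 in *Jarid2* WT (adjusted p = 0.297 from limma). *Aldh1a7*, a close rodent paralog of *Aldh1a1* that lies 49.5 kb from it on chromosome 19 (20692953 to 20727556), had 125, 135 and 126 in *Jarid2* Δpanc, against 185, 194 and 145 in *Jarid2* WT (-0.43, SE 0.13, adjusted p = 0.479 from limma). It was picked after its values were seen, and whether the probes of one paralog also pick up the other was not tested. *Aldh1l1*, a cytosolic folate enzyme picked in the same way, had 60, 36 and 62 in *Jarid2* Δpanc, against 103, 96 and 82 in *Jarid2* WT (-0.87, SE 0.26, adjusted p = 0.479 from limma). Its other probe set had a log2 difference of -0.03.

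For clearance, *Cyp26b1* and *Cyp2s1* were the 2 genes measured, and both were under the floor on some arrays. *Cyp26b1* had 59, 15 and 17 in *Jarid2* Δpanc, against 15, 7 and 33 in *Jarid2* WT, with sample 1 highest. *Cyp2s1* had 31, 10 and 26 in *Jarid2* Δpanc, against 15, 22 and 27 in *Jarid2* WT.

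Receptors, partners and cofactors were near the control level, with a median of 0.05 over 17 genes and 1 entirely below the controls, beside 5.64% of all genes. That gene was *Fabp5*, which carries retinoic acid among other ligands, with 6659, 7011 and 6330 in *Jarid2* Δpanc, against 7679, 8398 and 7145 in *Jarid2* WT (-0.21, SE 0.08, adjusted p = 0.565 from limma). The corepressor deacetylase *Hdac3* and the coactivator *Ncoa2* had 0.15 and 0.02. The other receptors, *Rara*, *Rarg*, *Rxra*, *Rxrb* and *Rxrg*, had log2 differences from -0.09 for *Rxrg* to 0.27 for *Rarg*, and all 5 overlapped between the groups.

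Of 25 response genes, 4 lay entirely above the controls and 1 entirely below, beside 5.71% and 5.64% of all genes, with a median of 0.07. The brightest were the transglutaminase *Tgm2* and the transcriptional regulators *Meis2* and *Zfp503*, at 0.07, -0.23 and 0.03. The 4 above the controls were *Meis1*, *Zfp703*, *Rarres2* and *Foxa1*, named after their values were seen. *Meis1*, a homeobox factor, had 590, 598 and 596 in *Jarid2* Δpanc, against 578, 520 and 516 in *Jarid2* WT (0.15, SE 0.05, adjusted p = 0.563 from limma). *Foxa1*, a factor of endoderm, had 59, 51 and 34 in *Jarid2* Δpanc, against 19, 19 and 12 in *Jarid2* WT (1.38, SE 0.24, adjusted p = 0.278 from limma), with 2 controls just over the floor and 1 under it, so that the size of the difference depends on the floor. The *Hox* genes of the list gave no common direction, with -0.10 for *Hoxa3*, 0.13 for *Hoxa5* and 0.20 for *Hoxb5*.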

How the data were processed

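The authors deposited linear MAS5 signal intensity for 45101 probe sets of 6 arrays, with every array brought to a common trimmed mean, found from the values to be 150 (2% trimmed off both ends). The MAS5 version is not given in the sources used here. The methods name RMA for the study's own analysis, which these intensities do not hold. A description label naming islets conflicts with all other labels and was not followed. Of the probe sets, 34958 carried 1 gene symbol, 932 several and 9211 none, and the first were kept. Signals were floored at 16 and put on the log2 scale. Group comparisons used lmFit and eBayes of limma 3.58.1 (R 4.3.3), with a threshold of 0.05 for adjusted p. A gene was read from its brightest probe set. The fit was tested on simulated data. The 9 genes, the 6 retinoid and 10 marker lists and the tests were chosen with earlier results of these data known. By rule the text names every member, the 3 brightest genes of each retinoid list (where none passed) and the 3 profiles most like *Aldh1a1* and *Rbp4*. Signals below the floor made up 26.5% to 29.0% of each array, and the number of arrays limits the precision. The 16 alternatives covered samples left out, the replicate block, floors, normalization, filters, variance model, probe set choice and a single control.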

Additional observations from a re-analysis of the deposited data

How the results depend on the processing

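The log2 differences of *Aldh1a1* (-0.82 to -0.59), *Aldh1a2* (0.12 to 0.36) and *Rarb* (0.17 to 0.38) kept their sign in all 16 alternatives. Most of these could not change the sign, so the count of 16 gives no support. The groups of *Aldh1a1* and *Aldh1a2* do not overlap, so leaving out samples could not reverse them. The replicate block, floors, filters, variance model and probe set choice left the differences of these genes unchanged. Those of *Rbp4* and *Crabp1* took the other sign in some (-0.11 to 0.06 and -0.15 to 0.12). The median over the 9 genes, 0.24, was -0.032 to 0.24 with a sample left out, lowest without *Jarid2* Δpanc sample 3, 0.00 with a floor of 64, -0.021 with the dimmest 40% left out (5 genes) and -0.022 against *Jarid2* WT sample 3 alone. The count of genes entirely above the controls, 1, was 1 to 3 with a sample left out, and that entirely below stayed at 1. Against *Jarid2* WT sample 3 alone both were 2. None of the 94 other retinoid genes passed in any alternative. Over all probe sets the 1 called higher became 2 to 13 with a sample left out (13 without *Jarid2* Δpanc sample 3), and the 0 called lower became 0 to 15 (15 without *Jarid2* WT sample 2). Quantile normalization gave 3 higher and 2 lower. The count of higher calls was 0 with floors of 1 or 64, with probe sets at the floor or the dimmest 40% left out, and with 1 value per gene. With *Jarid2* WT sample 3 as the only control, assumed to vary like the *Jarid2* Δpanc samples, 46 were higher and 577 lower. Those counts rest on 1 control, which also had the high skeletal muscle sum (13275, against 331 to 450 in the other samples). The part of muscle RNA in these calls was not tested, and nothing is read from either count. Deviations of same-numbered samples correlated at -0.02, -0.04 and -0.04, which shows no pairing by replicate number over the array. This cannot exclude that samples shared a litter, since the paper compared its mutants with control littermates at this stage. The replicate block called 0 higher and 0 lower.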
